A study of Homo sapiens with 6 samples.

Results

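Cholesterol is built from acetyl-CoA by a chain of enzymes whose genes share 1 transcriptional control, and 8 genes under that control were followed in the human ocular melanoma line 92.1 after knockdown of ALKBH3. They are HMGCS1, IDI1, FDPS, FDFT1, SQLE, LSS and DHCR7, which encode enzymes of the pathway, and INSIG1, which encodes its sterol-dependent brake. The genes were chosen by name as targets of the transcription factor SREBP2 for which transcripts were listed, not by their level. Earlier results of these data were known when the genes were chosen. They are 8 of the 11387 genes with a summed expression value. All 8 passed the filter on low values that left 10475 genes for testing. Control libraries (NC, 3 of them) have a genotype given as WT, and the 3 others (shALKBH3, where sh is the usual prefix of a short hairpin RNA) one given as ALKBH3 knockdown. All 6 come from 92.1 cells, an established line, grown in medium with fetal bovine serum and antibiotics. The labels give neither the hairpin sequence, nor the number of clones, nor whether NC cells carry a control hairpin, and they do not say that replicates were separate cultures. The p-values therefore measure the spread between these libraries, which may be technical.

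When sterols run low in the endoplasmic reticulum, SCAP carries SREBP2 to the Golgi, where it is cut, and the released fragment switches on the genes of cholesterol synthesis and of cholesterol uptake. When sterols are plentiful, INSIG proteins hold SCAP back, so the genes of the chain are usually studied as 1 unit. SREBP2 is known to bind together with NF-Y, a factor that recognises the CCAAT box, at many of these promoters.

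RefSeq promoter windows (build GRCh38.p14) were matched by symbol for 6 of the 8 genes: HMGCS1, IDI1, FDPS, LSS, DHCR7 and INSIG1. In the 250 bases before the start site all 6 held the letters CCAAT on 1 strand or the other, which 32.0% of all 35116 windows did. HMGCS1, IDI1 and DHCR7 had 2 such boxes each, FDPS 3, and LSS and INSIG1 1 each. The stretch around the box farthest from the start site is shown for 5 of them, because the box is a feature they share. The choice of genes did not use these letters directly. It did use SREBP2, which is known to bind with NF-Y at many such promoters, so the choice itself may favour the box. Each reads 5′ to 3′ along the strand of the gene, with the box in capitals, and ATTGG is CCAAT on the other strand.
HMGCS1: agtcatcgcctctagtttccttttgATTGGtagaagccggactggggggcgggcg
IDI1: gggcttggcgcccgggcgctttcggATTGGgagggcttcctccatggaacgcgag
FDPS: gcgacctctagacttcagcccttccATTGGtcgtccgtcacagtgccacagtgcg
LSS: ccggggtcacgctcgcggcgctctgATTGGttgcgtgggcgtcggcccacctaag
INSIG1: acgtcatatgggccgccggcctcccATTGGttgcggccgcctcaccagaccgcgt
The HMGCS1 stretch lies at chr5:43313538-43313592 on the minus strand, 155 bases before the start site. The IDI1 stretch lies at chr10:1049305-1049359 on the minus strand, with its box 215 bases before the start. The FDPS stretch is chr1:155308665-155308719 on the plus strand and its box is 176 bases before the start. The LSS stretch is chr21:46228895-46228949 on the minus strand, at 150 bases, and the INSIG1 stretch is chr7:155297683-155297737 on the plus strand, at 170 bases. The farthest DHCR7 box, not shown, differs from these. It reads CCAAT along the strand of the gene, lies 94 bases before the start, and its stretch overlaps 1 GENCODE transcript. A GC box, GGGCGG on either strand, was present before the start in all 6 windows and in 42.6% of all windows. The letters CACNCCA, a core of the sterol response element searched on both strands, were found in 1 of the 6, INSIG1, and in 14.7% of all windows. Motifs were counted separately even where they could share bases. Such matches describe the letters of these windows and say nothing of binding.

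The deposited tables give FPKM, the fragments assigned to a transcript scaled to its length and to the library's fragments, and sums over a gene's transcripts are used here. Gene sums added up to 340522 to 360889 FPKM in NC and 326408 to 333506 in shALKBH3, and read depth is unknown. ALKBH3 itself averaged 10.1 ± 0.787 FPKM in NC and 3.71 ± 0.487 FPKM in shALKBH3 (3 libraries per group, SD, log2 difference -1.24, limma adjusted p = 0.0079). Of 12 melanocyte markers 3 had values here, MITF, GPR143 and RAB38, and SOX10, PMEL and MLANA were among the 9 not analysed here. The summed level of the 3 was 33.1 to 34.9 FPKM in NC and 32.2 to 39.0 in shALKBH3. MITF averaged 6.91 FPKM in NC and 11.8 FPKM in shALKBH3 without overlap (limma adjusted p = 0.31). RAB38 averaged 14.3 and 11.2 FPKM and GPR143 12.7 and 12.4 FPKM, both with overlap (limma adjusted p = 0.40 and 0.91). Of 6 leukocyte markers only CD68 had values, at 14.7 to 18.9 FPKM in NC and 33.8 to 37.4 in shALKBH3, and its part in the results below was not tested. In bulk RNA fewer cells of a type and less RNA per cell cannot be told apart.

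None of the 8 genes passed the test for a difference between the groups (0 higher and 0 lower at a limma adjusted p under 0.05, against 1.28% of all tested genes higher and 0.477% lower). In either direction 1.76% of all genes passed. Of the 8, HMGCS1 had a positive difference with an unadjusted p under 0.05, against 8.98% of all genes, and 3 had a negative one, FDPS, FDFT1 and INSIG1, against 8.15%. Together these were 4 of 8, against 17.1% in either direction. The 3 knockdown libraries lay wholly on 1 side of the controls for 4 genes, HMGCS1 above and IDI1, FDPS and FDFT1 below, against 12.9% of all genes above, 12% below and 24.9% on either side. The median log2 difference of the 8 was -0.23, beside -0.0096 over all tested genes. It was -0.14 when every library was rescaled to the same sum, where the median of all genes was 0.07. Differences are on the scale of log2(FPKM + 1), which understates those of low genes. The plot of FPKM by library shows the 8 genes one by one.

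**Figure D1:**
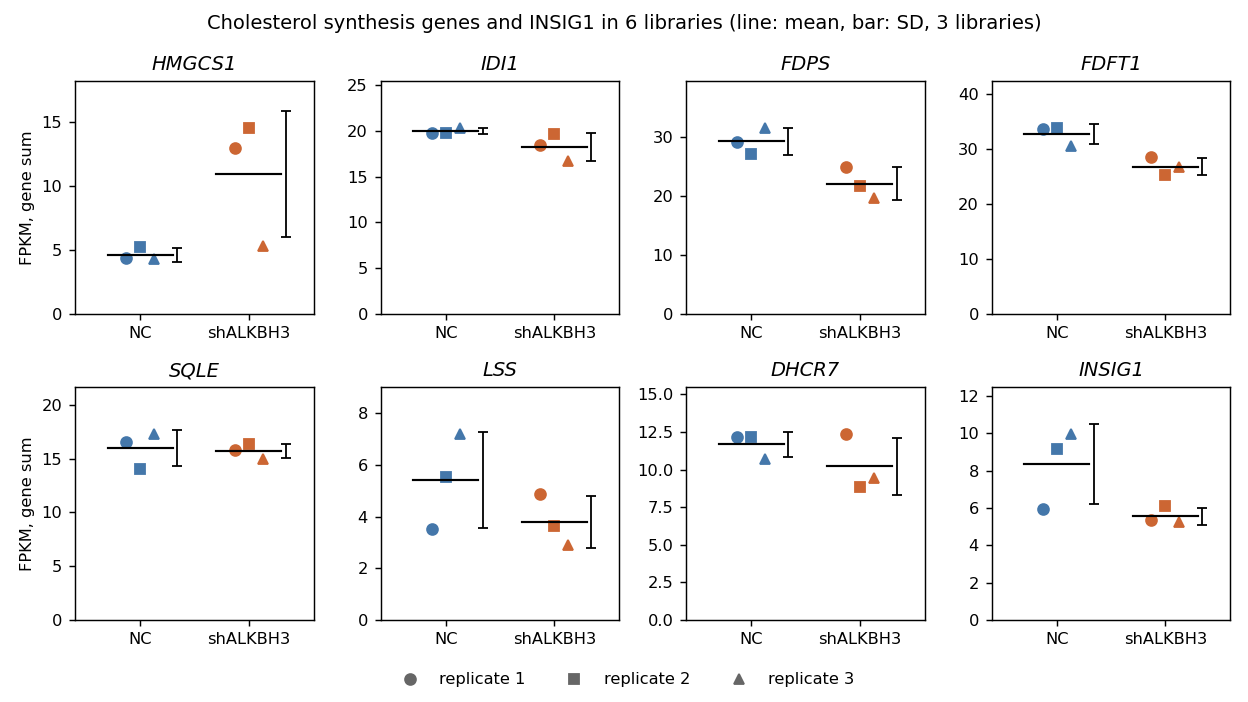
FPKM summed per gene (vertical axes, from 0) for the 8 genes in the 3 NC and 3 shALKBH3 libraries, with symbols for the replicates, a line for the mean and a bar for the SD. HMGCS1 reaches 13.0 and 14.5 FPKM in the first pair of shALKBH3 replicates but 5.32 in the third, close to the NC libraries, while FDPS and FDFT1 lie below NC in every knockdown library.

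HMGCS1 (ENSG00000112972, chromosome 5) encodes the cytosolic HMG-CoA synthase, which acts early in the mevalonate pathway. In the order of the replicate numbers, as for every gene below, its values were 4.33, 5.19 and 4.23 FPKM in NC and 13.0, 14.5 and 5.32 FPKM in shALKBH3. Knockdown replicates 1 and 2 were far above all controls, and replicate 3 was barely above the highest of them. The ratio of the group means was 2.38 and the log2 difference 1.00 (SE 0.344, 95% interval 0.16 to 1.83, limma adjusted p = 0.23). Ordered from the most positive to the most negative, this difference ranked 143 among the 10475 genes, and the within-group SD of 0.51 on the log2 scale was larger than that of 90.2% of them. Without shALKBH3 replicate 3 the log2 difference was 1.40 and passed (adjusted p = 0.037), whereas under the other 14 alternatives the adjusted p lay between 0.20 and 0.46.

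Both listed HMGCS1 transcripts are protein-coding. HMGCS1-201, of 3506 bases, was at 1.34, 2.56 and 1.30 FPKM in NC and 6.15, 10.0 and 2.96 FPKM in shALKBH3. HMGCS1-202, of 3466 bases, was at 2.99, 2.63 and 2.94 FPKM in NC and 6.80, 4.51 and 2.36 FPKM in shALKBH3. All knockdown values of HMGCS1-201 were above all its control values, and those of HMGCS1-202 overlapped them. The log2 difference was 1.34 for HMGCS1-201 (adjusted p = 0.42 over the 19698 transcripts tested) and 0.45 for HMGCS1-202 (adjusted p = 0.69), and whether they differ from each other was not tested. HMGCS1-201 made up 30.9%, 49.3% and 30.7% of the gene in NC and 47.5%, 69.0% and 55.7% in shALKBH3, so these shares overlap. The division of fragments between transcripts is an estimate, and the gene sum is the firmer value.

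**Figure D2:**
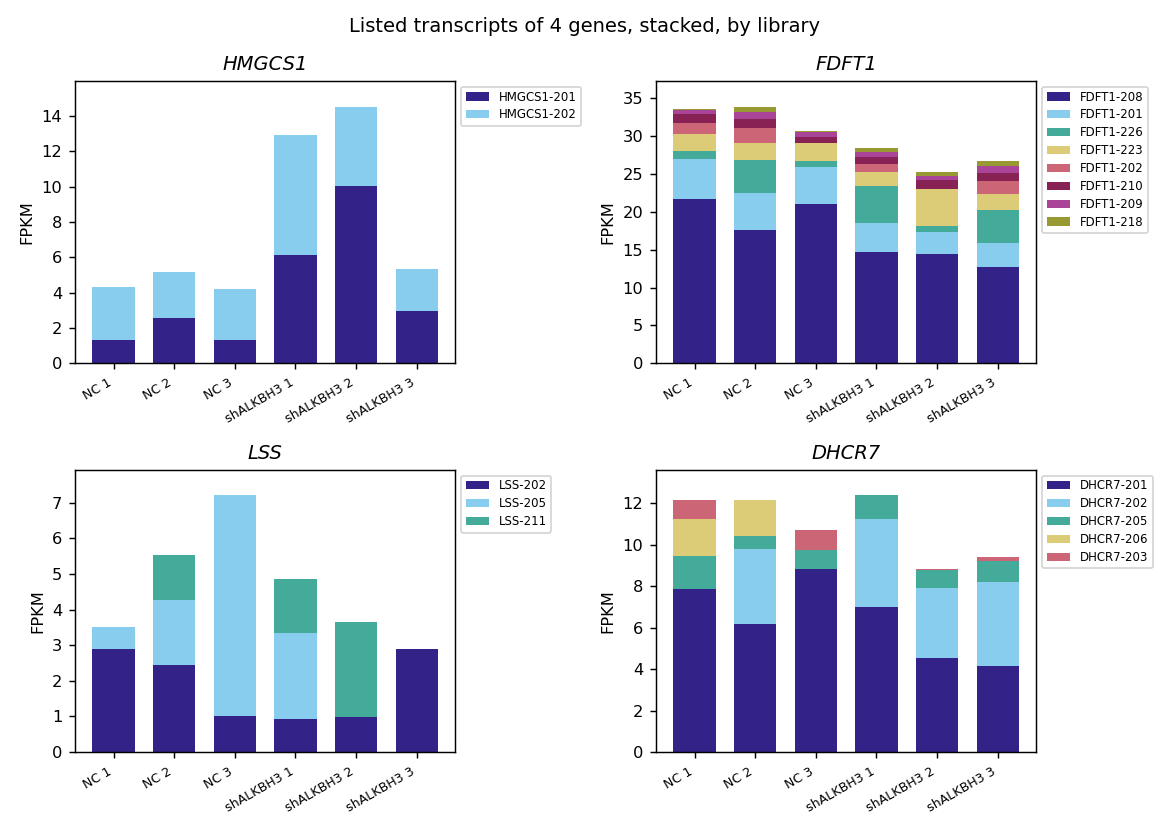
Stacked FPKM (vertical axes) of the listed transcripts of HMGCS1, FDFT1, LSS and DHCR7 in the 6 libraries, 1 colour per transcript within a gene. Both HMGCS1 transcripts are high in shALKBH3 replicates 1 and 2, FDFT1-208 is lower in every knockdown library, and the listed LSS transcripts replace one another from library to library.

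IDI1 (ENSG00000067064, chromosome 10) encodes the isomerase that interconverts the pair of isoprene units from which all later intermediates are built. Its 1 listed transcript was at 19.8, 19.8 and 20.4 FPKM in NC and 18.5, 19.6 and 16.7 FPKM in shALKBH3. All knockdown values were below all controls, by a narrow margin in replicate 2, and the ratio of the means was 0.914. The log2 difference was -0.13 (SE 0.088, 95% interval -0.34 to 0.087, limma adjusted p = 0.49). It was -0.037 with equal sums and -0.066 without shALKBH3 replicate 3. Its within-group SD exceeded that of only 12.9% of tested genes, so IDI1 was one of the steadiest of the 8.

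FDPS (ENSG00000160752, chromosome 1) encodes farnesyl diphosphate synthase, which supplies both sterols and the lipid anchors of small GTPases. It was at 29.0, 27.1 and 31.5 FPKM in NC and 24.9, 21.7 and 19.5 FPKM in shALKBH3. The groups did not overlap and the ratio of the means was 0.755. The log2 difference was -0.39 (SE 0.114, 95% interval -0.67 to -0.12, limma adjusted p = 0.18), and -0.28 after removal of the trend with transcript length and GC content (adjusted p = 0.17). The annotation names 8 FDPS pseudogenes, so fragments may have been shared with them. FDPS-203, the most abundant of its 5 listed transcripts, had a log2 difference of -0.25 with overlapping groups.

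FDFT1 (ENSG00000079459, chromosome 8) encodes squalene synthase, the first enzyme committed to sterols. It had the highest level per length of the 8 genes, at 33.6, 33.9 and 30.6 FPKM in NC and 28.4, 25.2 and 26.7 FPKM in shALKBH3. The groups did not overlap, the ratio of the means was 0.820, and the log2 difference was -0.28 (SE 0.084, 95% interval -0.48 to -0.073, limma adjusted p = 0.19). Of 8 listed transcripts the most abundant, FDFT1-208, was at 21.7, 17.5 and 21.1 FPKM in NC and 14.7, 14.4 and 12.7 FPKM in shALKBH3 (log2 difference -0.50, adjusted p = 0.31 over transcripts). FDFT1-201 had nearly the same difference, -0.48 (adjusted p = 0.38), also with no overlap. The other 6 transcripts overlapped between the groups, and FDFT1-226 ranged from 0.830 to 4.29 FPKM in NC and from 0.708 to 4.95 FPKM in shALKBH3.

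SQLE (ENSG00000104549, chromosome 8) encodes squalene epoxidase, the oxygen-requiring and rate-limiting step of the pathway. It was at 16.6, 14.1 and 17.3 FPKM in NC and 15.8, 16.3 and 15.0 FPKM in shALKBH3, and all knockdown values lay within the range of the controls. The log2 difference of -0.019 (SE 0.103, limma adjusted p = 0.94) had a 95% interval from -0.27 to 0.23, which bounds the difference more tightly than for LSS, INSIG1 or HMGCS1. Its sign was positive when libraries were rescaled to equal sums (0.070).

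LSS (ENSG00000160285, chromosome 21) encodes lanosterol synthase, which closes the sterol rings. It was at 3.51, 5.54 and 7.21 FPKM in NC and 4.87, 3.64 and 2.89 FPKM in shALKBH3, with overlap because NC replicate 1 was below 2 knockdown libraries. The log2 difference was -0.40 (SE 0.260, 95% interval -1.03 to 0.23, limma adjusted p = 0.47). It was -0.63 without NC replicate 1, -0.20 without NC replicate 3 and -0.26 without shALKBH3 replicate 3. The listed transcripts took turns: LSS-202 made up 82.6% of the gene in NC replicate 1 and 14.2% in NC replicate 3, and LSS-205 made up 17.4% and 85.8%.

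DHCR7 (ENSG00000172893, chromosome 11) encodes the reductase that turns 7-dehydrocholesterol into cholesterol. It was at 12.2, 12.2 and 10.7 FPKM in NC and 12.4, 8.85 and 9.43 FPKM in shALKBH3. Knockdown replicate 1 was the highest of all 6 libraries, and the other two knockdown libraries were the lowest. The log2 difference was -0.19 (SE 0.140, 95% interval -0.53 to 0.15, limma adjusted p = 0.52). It was -0.32 without shALKBH3 replicate 1 and -0.10 without shALKBH3 replicate 2, -0.10 with equal sums or after correction for length and GC content, and -0.48 for the most abundant transcript alone, and it passed in none of these. DHCR7-202 had listed values of 0, 3.63 and 0 FPKM in NC against 4.28, 3.39 and 4.07 FPKM in shALKBH3, so its groups overlapped (adjusted p = 0.53 over transcripts).

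INSIG1 (ENSG00000186480, chromosome 7) encodes the protein that retains SCAP in the endoplasmic reticulum, and it is itself a target of SREBP2. It was at 5.94, 9.15 and 9.98 FPKM in NC and 5.34, 6.09 and 5.24 FPKM in shALKBH3. Knockdown values were close together and below NC replicates 2 and 3, while NC replicate 1 lay among them. The ratio of the means was 0.665, the lowest of the 8, and the log2 difference was -0.49 (SE 0.189, 95% interval -0.95 to -0.028, limma adjusted p = 0.28). The difference was -0.69 when NC replicate 1 was left out (adjusted p = 0.13) and -0.36 when NC replicate 3 was (0.52). INSIG1-201, of 2 listed transcripts, carried 67.8% of the gene in NC replicate 1 and 78.3% to 90.8% in the other libraries.

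By level per length in NC the order was FDFT1, FDPS, IDI1, SQLE, DHCR7, INSIG1, LSS and HMGCS1, from 32.7 ± 1.80 down to 4.59 ± 0.529 FPKM (SD, 3 libraries). The ranges over the 3 NC libraries overlapped between FDFT1 and FDPS, INSIG1 and LSS, and LSS and HMGCS1, and the other neighbours were apart. In shALKBH3 HMGCS1 averaged 10.9 ± 4.93 FPKM, above INSIG1 at 5.56 ± 0.465 and LSS at 3.80 ± 1.00, but its lowest library was not above the highest of INSIG1. Without HMGCS1 the other 7 genes added up to 121, 122 and 128 FPKM in NC and 110, 101 and 95.4 FPKM in shALKBH3. All 3 knockdown sums were below all control sums, as was also the case for the sums over all genes.

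The 8 genes did not share 1 pattern across libraries. HMGCS1 had a positive log2 difference and the other 7 genes negative ones, of which that of SQLE turned positive under equal sums. Of the 6 libraries, shALKBH3 replicate 3 held the lowest value of 4 genes, IDI1, FDPS, LSS and INSIG1. NC replicate 3 held the highest value of 5 genes, IDI1, FDPS, SQLE, LSS and INSIG1, and it held the lowest value of HMGCS1. The map of deviations from each gene's mean shows this library by library.

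**Figure D3:**
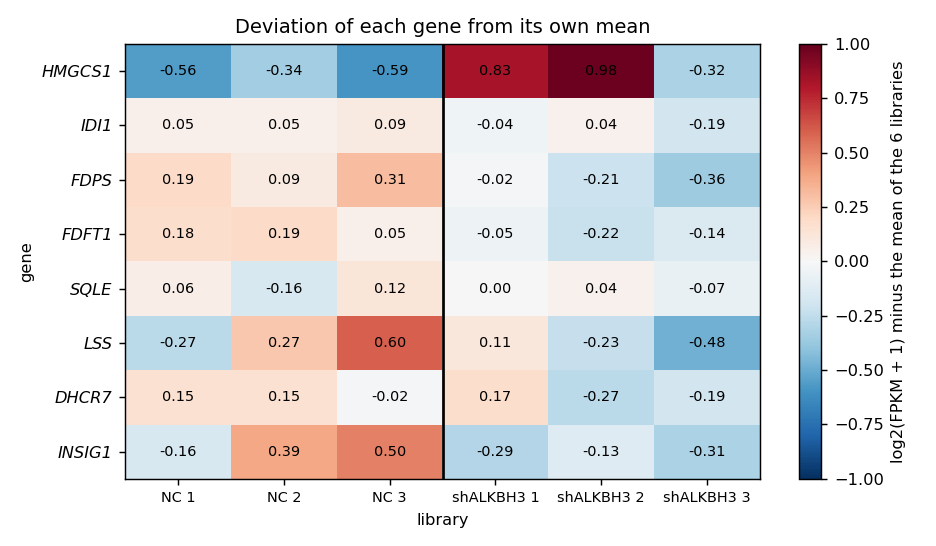
Deviation of log2(FPKM + 1) from the gene's mean over the 6 libraries (colour and number in each cell), with genes in rows, libraries in columns and a line between NC and shALKBH3. HMGCS1 runs from -0.59 in NC replicate 3 to 0.98 in shALKBH3 replicate 2, and IDI1 is never farther from its mean than -0.19.

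The other enzymes of the chain were looked at through a list of 23 pathway genes, of which 22 were tested, 7 of the 8 genes above among them. None passed (0 higher and 0 lower in limma). An unadjusted p under 0.05 was found for 1 positive difference, against 8.98% of all genes, and 5 negative ones, against 8.15%. Genes already described above are among these, and the 15 other enzymes tested had 0 positive and 3 negative. The median of the 22 was -0.13, and -0.040 with equal sums. CYP51A1, which removes a methyl group from lanosterol, was at 18.2, 19.8 and 19.9 FPKM in NC and 13.9, 14.8 and 12.9 FPKM in shALKBH3. The groups did not overlap (log2 difference -0.45, limma adjusted p = 0.083), and the difference passed after correction for length and GC content (-0.53, adjusted p = 0.038). EBP, a sterol isomerase, averaged 8.70 ± 1.12 FPKM in NC and 5.33 ± 1.27 FPKM in shALKBH3 (3 libraries per group, SD), also without overlap (-0.63, adjusted p = 0.16).

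**Figure D4:**
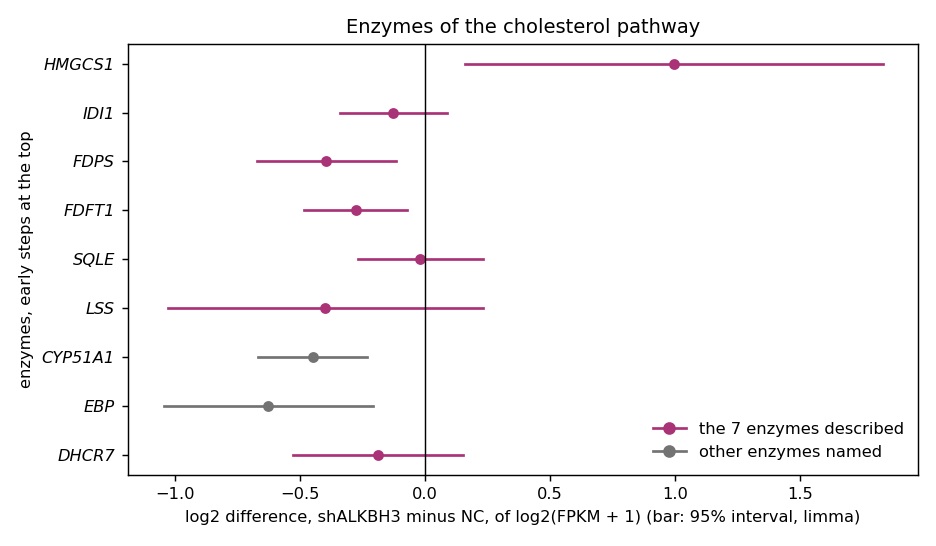
Log2 difference between shALKBH3 and NC (horizontal axis, with limma's unadjusted 95% interval) for the 9 enzymes named in the text, from the first steps at the top to the last at the bottom. HMGCS1 is at 1.00 and EBP at -0.63, and the intervals of IDI1, SQLE, LSS and DHCR7 include 0.

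Among 18 tested genes of SREBP processing and sterol sensing none passed (0 higher and 0 lower in limma, median -0.044, and 0.039 with equal sums). SREBF2, which encodes SREBP2, averaged 17.3 ± 0.618 FPKM in NC and 15.1 ± 1.74 FPKM in shALKBH3 (3 libraries per group, SD, log2 difference -0.18, limma adjusted p = 0.41). MBTPS2, which encodes the protease that makes the second cut in SREBP, had a difference of 0.26 (adjusted p = 0.22), and ERLIN2, an endoplasmic reticulum scaffold, had 0.23 (0.24), both with non-overlapping groups. After correction for length and GC content they were 0.14 and 0.090. SREBF2 was -0.094 with equal sums, -0.33 for its most abundant transcript and -0.27 without shALKBH3 replicate 1.

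Among 17 tested genes of cholesterol uptake none passed (0 higher and 0 lower in limma, median 0.16, and 0.24 with equal sums). All knockdown libraries were above all controls in 6 of them, against 12.9% of all genes, and below all controls in 2, against 12%. STARD4, which carries cholesterol between membranes, averaged 21.2 ± 1.42 FPKM in NC and 28.0 ± 0.879 FPKM in shALKBH3 without overlap (3 libraries per group, SD, 0.39, adjusted p = 0.092), but its most abundant transcript alone had -0.23. SORT1, a sorting receptor, had 0.34 (adjusted p = 0.15) and 0.21 both for its most abundant transcript and after correction for length and GC content. The lipoprotein receptor gene LRP8 had 0.67 (adjusted p = 0.27) and SNX17, a sorting nexin that recycles receptors of this family, had -0.43 (0.21).

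In the sister branch of fatty acid synthesis, which SREBP1 controls, 1 of 16 tested genes passed, downward. Of all tested genes 0.477% passed downward and 1.76% in either direction. GPAM, which adds the first acyl chain in triglyceride synthesis, was at 37.5, 41.2 and 32.2 FPKM in NC and 18.7, 22.8 and 21.1 FPKM in shALKBH3, and every knockdown library was below every control. Its log2 difference was -0.79 (SE 0.123, limma adjusted p = 0.041). The call was lost when any 1 of the 6 libraries was left out (adjusted p from 0.057 without NC replicate 3 to 0.15 without NC replicate 1 or shALKBH3 replicate 3). ELOVL6, a fatty acid elongase, had 0.73 (adjusted p = 0.15), MID1IP1, an activator of acetyl-CoA carboxylase, had -0.69 (0.20) and the synthase gene FASN had -0.30 (0.39). For the most abundant transcript alone these were 1.73, -1.79 and -1.33 (adjusted p = 0.40, 0.26 and 0.55), and FASN was -0.18 without NC replicate 2. The median of the 16 was -0.036, and 0.057 with equal sums.

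None of the 9 tested genes in a list of LXR targets and sterol efflux passed in limma. That list also holds the receptor genes NR1H2, NR1H3 and RXRA. Nor did any of 12 genes of oxysterols and cholesterol esters or 14 genes of the isoprenoid branch pass. In these 3 lists 4 genes had an unadjusted p under 0.05 in limma, against 17.1% of all genes in either direction. The medians of the 3 lists were 0.11, 0.16 and 0.039, and 0.16, 0.25 and 0.12 with equal sums. The cholesterol exporter gene ABCA1 had a log2 difference of 0.36 (adjusted p = 0.16), LPCAT3 0.31 (0.49) and MYLIP, a ubiquitin ligase gene, 0.21 (0.49). ABCA1 was 0.20 after correction for length and GC content, LPCAT3 ran from 0.18 without shALKBH3 replicate 1 to 0.53 without shALKBH3 replicate 2, and MYLIP was 0.10 without shALKBH3 replicate 2 and 0.34 with a pseudocount of 0.1. NCEH1, a cholesterol ester hydrolase, had 0.33 (adjusted p = 0.16), and the oxysterol-binding protein genes OSBPL1A, OSBPL2 and OSBPL10 had 0.18, 0.37 and 0.19 (0.34, 0.34 and 0.37). The most abundant transcript of OSBPL2 alone had 1.94 and passed (adjusted p = 0.026), and the gene sum had 0.23 without NC replicate 3. For the most abundant transcript NCEH1 was 1.62 (adjusted p = 0.36) and OSBPL10 0.077. After correction for length and GC content OSBPL1A was 0.11 and OSBPL10 0.051. GGPS1, which draws on the product of FDPS, averaged 14.6 ± 4.98 FPKM in NC and 22.0 ± 1.59 FPKM in shALKBH3 without overlap (3 libraries per group, SD, 0.61, adjusted p = 0.28), and its difference was 0.35 without NC replicate 2. FNTA, RABGGTB and COQ2 had 0.43, -0.11 and 0.34 (adjusted p = 0.46, 0.59 and 0.61). FNTA was 0.28 without NC replicate 1, 0.69 without NC replicate 3 and 0.25 without shALKBH3 replicate 2. RABGGTB was -0.023 with equal sums and -0.046 without shALKBH3 replicate 3, and COQ2 was 0.57 without NC replicate 1 and -0.0079 without NC replicate 3.

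**Figure D5:**
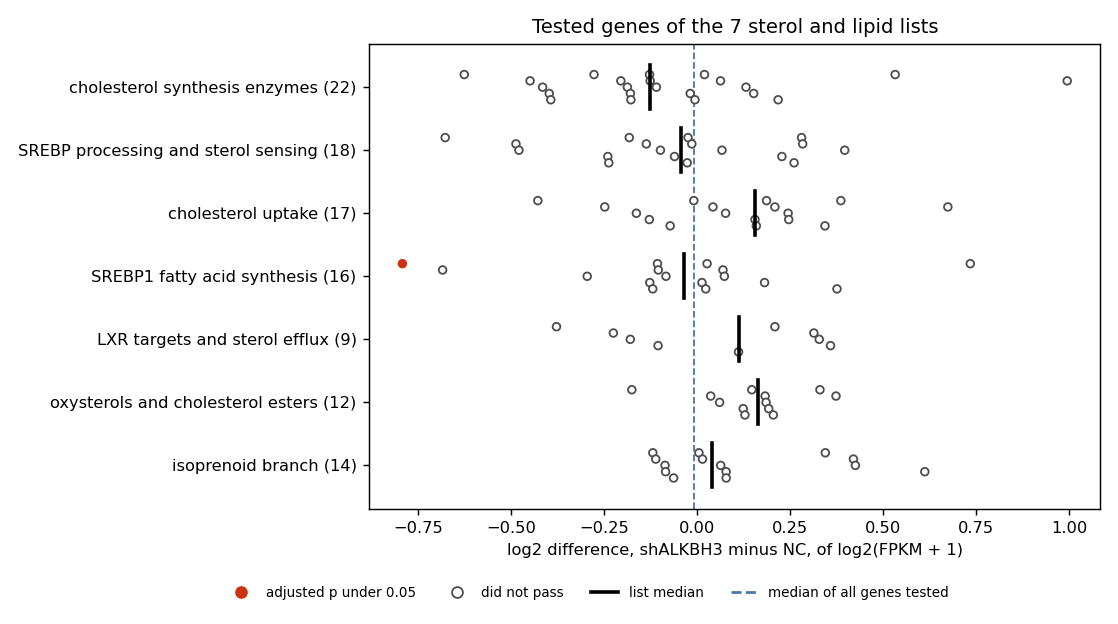
Log2 difference between shALKBH3 and NC (horizontal axis) of each tested gene in 7 lists (rows, number tested in brackets), with a black bar at each list's median and a dashed line at the median of all tested genes. GPAM, at -0.79 in the fatty acid list, is the filled point, and the open points did not pass.

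Outside all lists, 6926 genes averaging 5 FPKM or more were compared with the mean profile of the 8 over the 6 libraries. That mean depends on HMGCS1, which differed from the others. In shALKBH3 replicates 1, 2 and 3 it was 0.088, 0.00079 and -0.26, and without HMGCS1 -0.017, -0.14 and -0.25. Among the nearest were CDC42EP2, MCM3, POLR2C and SLC35A4, with root mean square distances of 0.042, 0.048, 0.049 and 0.050 on the log2 scale. The profile they follow is shallow, at most 0.26 from its mean, and their own differences did not pass (limma adjusted p from 0.41 to 0.63).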

How the data were processed

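RNA of 6 samples was sequenced. The authors deposited FPKM per transcript, per the file headers. The submitters' processing notes name hg19, HTSeq 0.6.0 and DESeq2 without a role, and the tool behind the FPKM is not given in the sources used here. Of 28900 listed transcripts 28796 (99.64%) matched GENCODE release 29 by identifier without version, and FPKM were summed to 11387 genes. Values go down to 1e-06, so whole reads were not recovered and depth is unknown.

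The 10475 genes averaging 1 FPKM or more were tested as log2(FPKM + 1) with limma 3.58.1 (R 4.3.3, variance trend, two-sided, Benjamini-Hochberg over all genes, threshold 0.05). Intervals are limma's 95% intervals, unadjusted. The script was tested on simulated data. Tables were made in Python 3.11.15 with numpy 2.4.6 and pandas 2.3.3 and drawn with matplotlib 3.10.9. Promoter windows are RefSeq's, for genes with several the one nearest the start of the most abundant listed transcript (42 to 102 bases away).

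The members and lists were chosen with earlier results of these data known. Named were the 8 genes, ALKBH3, in each list the genes past the threshold and the 4 of smallest adjusted p, and the 5 nearest profiles. Some genes that this rule names are not reported here. Alternatives changed the pseudocount, filter, scaling, gene value, length and GC correction, replicate block, variance model and each library in turn. The test of single transcripts was added after the data had been seen.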

Additional observations from a re-analysis of the deposited data

How the results depend on the processing

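None of the 8 genes passed in limma under the 15 alternatives, except HMGCS1 without shALKBH3 replicate 3, so the number of the 8 that were higher ran from 0 to 1 when single libraries were left out. Their median log2 difference lay between -0.32 and -0.14. The sign of SQLE turned with equal sums (0.070) and with the most abundant transcript (0.056), and ran from -0.10 to 0.038 when libraries were left out. STARD4 was -0.23 with the most abundant transcript, CDC42EP2 0.039 after correction for length and GC content, and COQ2 ran from -0.0079 to 0.57 when libraries were left out. The cause of these turns was not tested. Over all genes 134 were higher and 50 lower. Leaving out 1 library, with fewer samples, gave 39 to 88 higher and 9 to 22 lower, and the most abundant transcript gave 80 and 25. There were 24 lower with equal sums, 27 without the variance trend and 82 after correction for length and GC content. With the replicate block there were 17 higher and 3 lower, and GPAM (adjusted p = 0.14) and ALKBH3 (0.098) lost their calls. Deviations of same-numbered libraries correlated at -0.088, 0.075 and -0.012 across genes, so the numbers were not taken to pair the libraries. LSS was not tested at a minimum mean of 5 FPKM. GPAM was also lost with equal sums (0.070), the most abundant transcript (0.055) and no variance trend (0.056), as was ALKBH3 with the most abundant transcript (0.063). Depth is unknown, so no counting error could be given.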

Other observations

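Some sterol genes stood out in a single library, and they are named after their values were seen. INSIG2, the relative of INSIG1 with 1 listed transcript, was at 3.78 FPKM in shALKBH3 replicate 2 and at 17.0 to 22.8 FPKM in the other 5 libraries. The oxysterol receptor genes NR1H3 and NR1H2 were also lowest in that library, at 0.0375 and 15.8 FPKM. GRAMD1A, a cholesterol transfer protein of the endoplasmic reticulum, was at 3.71 FPKM in shALKBH3 replicate 3 and at 8.79 to 13.8 FPKM elsewhere. None of these 4 passed in limma (adjusted p from 0.71 to 0.89).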
